A study of Bos taurus with 12 samples.

Results

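The 8 genes described here, HMGCS1, IDI1, FDPS, FDFT1, SQLE, LSS, CYP51A1 and DHCR7, encode enzymes that build cholesterol from acetyl-CoA. They were chosen by symbol and not by any measured value, and all 8 were found among the 32637 genes of a table of RNA-seq read counts. The table covers expanded bovine blastocysts produced in vitro from slaughterhouse oocytes and collected on Day 7 or Day 8, in 6 female and 5 male libraries. Each embryo was bisected so that both pieces held inner cell mass and trophectoderm, one piece was sexed by PCR, and the remaining pieces of 2 embryos of the same sex made up 1 library, so the replicates are pools. The groups were defined by sex, with no treatment or genetic change. The semen came from 2 bulls used in rotation, and the labels do not give the day, week or bull of a pool. A sample of 4-cell embryos for long-read sequencing was not analysed here. The question was whether these enzymes differ between the sexes, and how they vary from pool to pool.

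Cholesterol synthesis runs from acetyl-CoA through mevalonate and the isoprenoid diphosphates to squalene, which is closed into lanosterol and then trimmed and reduced to cholesterol. When sterols run low in the endoplasmic reticulum, SREBP transcription factors are carried by SCAP to the Golgi, are cut by a pair of proteases and switch on most genes of the pathway. INSIG proteins hold this machinery back when sterols are plentiful. Embryos need cholesterol for new membranes and for the modification of hedgehog proteins, and the isoprenoid intermediates for protein prenylation.

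Counted reads per library ranged from 6664112 to 21392764. Levels are given as CPM (counts relative to library size, in units of 1e6 reads) scaled with edgeR's TMM factors, which make libraries comparable for 1 gene but do not correct for transcript length, so levels of different genes are not ranked here. Markers fixed by name for the inner cell mass and the trophectoderm were all counted in every library, with the exception of TDGF1, which is not in the table. Markers of cumulus cells, which surround the oocyte, summed to between 5.38 and 32.7 CPM, most of it from FSHR, which had 58 to 359 counts in every library. Of the other 6 cumulus markers, HAS2, TNFAIP6 and CYP19A1 had at most 61, 45 and 42 counts in any library and INHA, AMH and FOXL2 at most 4, 2 and 1. Each library holds both embryonic lineages, so fewer cells of a type and less RNA per cell cannot be told apart.

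The 8 enzymes together took between 0.136% and 0.372% of all counts of a library. Their summed level was 2387 ± 943 CPM in females (SD, n = 6) and 2820.0 ± 733 CPM in males (SD, n = 5). It ran from 1258 CPM in female replicate 3 to 3851 CPM in male replicate 5, and the sexes overlapped throughout most of this range. A gene was called sex-biased where edgeR's quasi-likelihood test gave an FDR, the adjusted p, under 0.1 and the fold exceeded 1.5. By this rule 0 of the 8 were called and 0 had an unadjusted p under 0.05, while 1.91% of the 12802 tested genes were called, 0.414% as higher in males and 1.5% as higher in females. All 8 lie on autosomes, where 0.707% of 12172 tested genes were called and 11.1% had an unadjusted p under 0.05. DESeq2, with or without the library number, also called 0 of the 8, against 4.17% and 4.62% of the genes it tested. Every edgeR estimate of the 8 lay on the male side, by 0.022 to 0.67 on the log2 scale with a median of 0.13, against a median of 0.0050 over all tested genes and 0.020 over autosomal ones. Of all tested genes 50.5% had an estimate on the male side, as had 52.4% of the autosomal ones. As the 8 vary together from library to library, they do not count as 8 separate observations of a side. The 95% intervals of all 8 included 0, and all 8 overlapped between the sexes, whereas 3.31% of tested genes did not overlap.

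**Figure D1:**
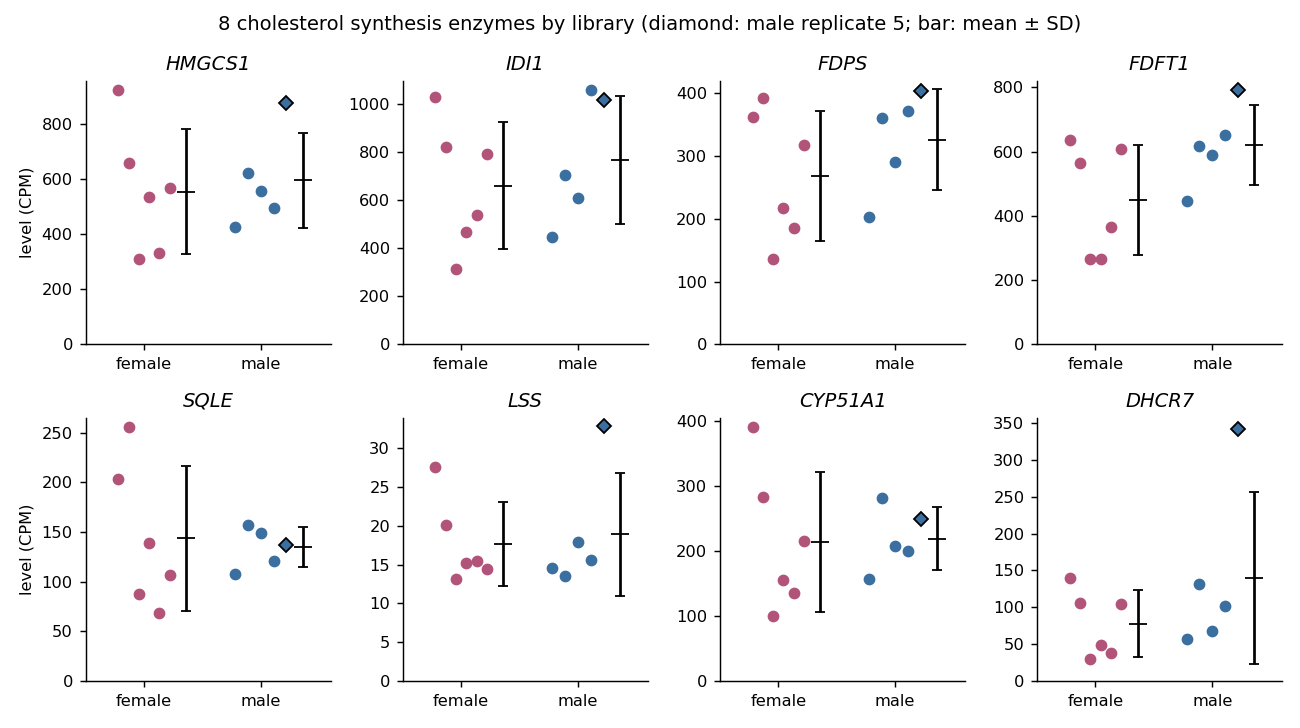
Level in CPM (vertical axes, from 0) of the 8 enzymes in each female (left, n = 6) and male (right, n = 5) library, with the mean and SD as a bar beside the points and male replicate 5 as a diamond. The sexes overlap in every panel, and in DHCR7 the diamond stands at 342 CPM above all other libraries.

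Among the enzymes that lead to the isoprenoids, HMGCS1 condenses acetyl-CoA and acetoacetyl-CoA into HMG-CoA, the precursor of mevalonate. Its gene lies at 31431132 to 31456871 on chromosome 20 of the ARS-UCD2.0 assembly. HMGCS1 was at 309.8 CPM in the lowest, 552 CPM in the median and 925 CPM in the highest female library. In males it was at 424, 622, 558, 494 and 876 CPM in replicates 1 to 5. The female range enclosed every male library. The means were 554 ± 227 CPM in females (SD, n = 6) and 595 ± 174 CPM in males (SD, n = 5), a log2 fold change, male minus female, of 0.11 (95% interval -0.49 to 0.71, Benjamini-Hochberg adjusted p = 0.908 from the edgeR test).

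IDI1, at 46325275 to 46328402 on chromosome 13, interconverts the 2 five-carbon isoprenoid units. IDI1 was at 315 CPM, 666 CPM and 1028 CPM in the lowest, median and highest female library. The male libraries had 445, 704, 610.5, 1059 and 1017 CPM, so male replicates 4 and 5 stood level with the highest female. The log2 fold change was 0.16 (95% interval -0.40 to 0.71, adjusted p = 0.848 from the edgeR test). FDPS, at 15311071 to 15320244 on chromosome 3, joins these units into farnesyl diphosphate, from which sterols, dolichol, ubiquinone and prenyl groups all branch. Female libraries had between 136 CPM and 391.99 CPM of FDPS with a median of 267 CPM, and male libraries had 202, 361, 290.0, 372 and 403 CPM. The 3 lowest values were those of female replicates 3 and 5 and male replicate 1. The log2 fold change of FDPS was 0.26 (95% interval -0.28 to 0.80, adjusted p = 0.704 from the edgeR test).

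FDFT1, squalene synthase, takes the first step that commits farnesyl diphosphate to sterols, and its gene lies at 7591013 to 7617467 on chromosome 8. FDFT1 was at 265 CPM in the lowest, 465.6 CPM in the median and 635 CPM in the highest female library. The male libraries had 446, 619, 590.1, 650.5 and 794 CPM. The 3 lowest libraries were female and the 2 highest male, yet the ranges overlapped between 446 CPM and 635 CPM. FDFT1 had the smallest p of the 8, with 451 ± 172 CPM in females (SD, n = 6), 619.8 ± 125 CPM in males (SD, n = 5) and a log2 fold change of 0.45 (95% interval -0.020 to 0.92, adjusted p = 0.400 from the edgeR test). In fold terms this interval reached from 0.986 to 1.90, which holds both no difference and the 1.5-fold of the call. Without male replicate 3 the log2 fold change of FDFT1 was 0.20, the lowest of the fits without 1 library. Male replicate 3 is the only male with the library number 2, which the fit uses as a block. Without it the 2 females of that number had no male to be compared with in their block.

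SQLE, squalene epoxidase, adds the oxygen that becomes the hydroxyl group of cholesterol and is a controlled step of the sterol branch. Its gene lies at 15144670 to 15167712 on chromosome 14. SQLE was at 68.3 CPM, 123 CPM and 256 CPM in the lowest, median and highest female library, and at 108, 157, 149, 121 and 137 CPM in males. All male libraries sat inside the female range, with an SD of 20.1 CPM in males (n = 5) and 72.5 CPM in females (n = 6). The log2 fold change was 0.022 (95% interval -0.54 to 0.58, adjusted p = 0.984 from the edgeR test), or in fold terms from 0.689 to 1.496.

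LSS, lanosterol synthase, closes squalene epoxide into the 4 rings of lanosterol, and its gene at 145889080 to 145919525 on chromosome 1 overlaps the long non-coding RNA gene LOC132346253, which had at most 6 counts in a library. LSS rested on the fewest reads of the 8, between 111 and 678 counts per library. It was at 13.1 CPM, 15.4 CPM and 27.6 CPM in the lowest, median and highest female library and at 14.6, 13.5, 18.0, 15.7 and 32.9 CPM in males. Male replicate 5 and female replicate 1 were above all others. The log2 fold change was 0.068 (95% interval -0.56 to 0.70, adjusted p = 0.950 from the edgeR test).

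CYP51A1, the cytochrome P450 that removes a methyl group from lanosterol, lies at 9459764 to 9476603 on chromosome 4. It was at 99.9 CPM, 186 CPM and 391 CPM in the lowest, median and highest female library and at 157, 282, 207, 199.8 and 249 CPM in males. As for SQLE, every male library fell within the female range. The log2 fold change was 0.087 (95% interval -0.47 to 0.65, adjusted p = 0.923 from the edgeR test).

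DHCR7 reduces 7-dehydrocholesterol to cholesterol, the last step of one arm of the pathway, and lies at 48285095 to 48304736 on chromosome 29. DHCR7 was at 29.7 CPM in the lowest, 77.0 CPM in the median and 140.0 CPM in the highest female library. The male libraries had 56.5, 132, 68.0, 102 and 342 CPM. Male replicate 5 was more than any other library of either sex, and the other 4 males lay within the female range. The means were 77.9 ± 45.1 CPM in females (SD, n = 6) and 140.0 ± 117 CPM in males (SD, n = 5), with a log2 fold change of 0.67 (95% interval -0.30 to 1.65, adjusted p = 0.569 from the edgeR test). Without male replicate 5 the log2 fold change of DHCR7 was 0.22 (adjusted p = 0.795 from edgeR). DHCR7 was called, with an adjusted p of 0.0516 from edgeR, when every gene of at least 1 count was kept in the fit, which called 3.11% of its genes. DHCR7 was also the most variable of the 8, with the highest library 11.5-fold above the lowest, compared with 2.51-fold for LSS to 3.91-fold for CYP51A1 among the other 7. Its biological coefficient of variation in edgeR, the spread left after sex, library number and counting error, was 0.488, larger than that of 73.6% of tested genes. Over all tested genes the median was 0.348. LSS stood at this median with 0.349, and the other 6 were below it, from 0.266 for FDFT1 to 0.321 for HMGCS1.

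A further 11 enzymes of the pathway were listed by name, from ACAT2, which makes acetoacetyl-CoA, to SC5D, a late sterol desaturase. All 11 were tested and 0 were called by edgeR or by DESeq2 with the library number, against 1.91% of tested genes in edgeR, and 1 had an unadjusted p under 0.05, as had 13.2% of tested genes. The log2 fold changes of the mevalonate genes were 0.16 for ACAT2, 0.44 for the kinase MVK, 0.36 for the second kinase PMVK and 0.84 for the decarboxylase MVD, whose 95% interval ran from -0.12 to 1.799. Without male replicate 5 they were -0.036 for MVK, 0.036 for PMVK and 0.23 for MVD. After lanosterol, they were 0.49 for TM7SF2 and -0.23 for LBR, both sterol reductases, 0.076 for the methyl oxidase MSMO1, 0.30 for HSD17B7 and 0.12 for SC5D. TM7SF2 had as few as 1 count in a library and an interval from -1.62 to 2.60.

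Of these 11 enzymes, 2 are on the X chromosome, NSDHL and EBP, and both estimates were on the female side. NSDHL, which helps to remove the methyl groups of lanosterol, was at 207 CPM, 452 CPM and 706 CPM in the lowest, median and highest female library and at 174, 309, 224, 291 and 382 CPM in males. The ranges overlapped between 207 CPM and 382 CPM. Its log2 fold change was -0.71 (95% interval -1.24 to -0.18, adjusted p = 0.224 from the edgeR test). EBP, the sterol isomerase, was at 185 CPM, 313 CPM and 663 CPM in the lowest, median and highest female library. In males it was at 204, 387, 193, 272 and 278 CPM, with all 5 inside the female range, and its log2 fold change was -0.46 (95% interval -0.94 to 0.022, adjusted p = 0.401 from edgeR). Over the 476 tested X-linked genes the median was -0.85, 94.3% were lower in males and 27.9% were called. NSDHL and EBP were therefore less female-sided than 60.5% and 79.4% of X-linked genes.

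**Figure D2:**
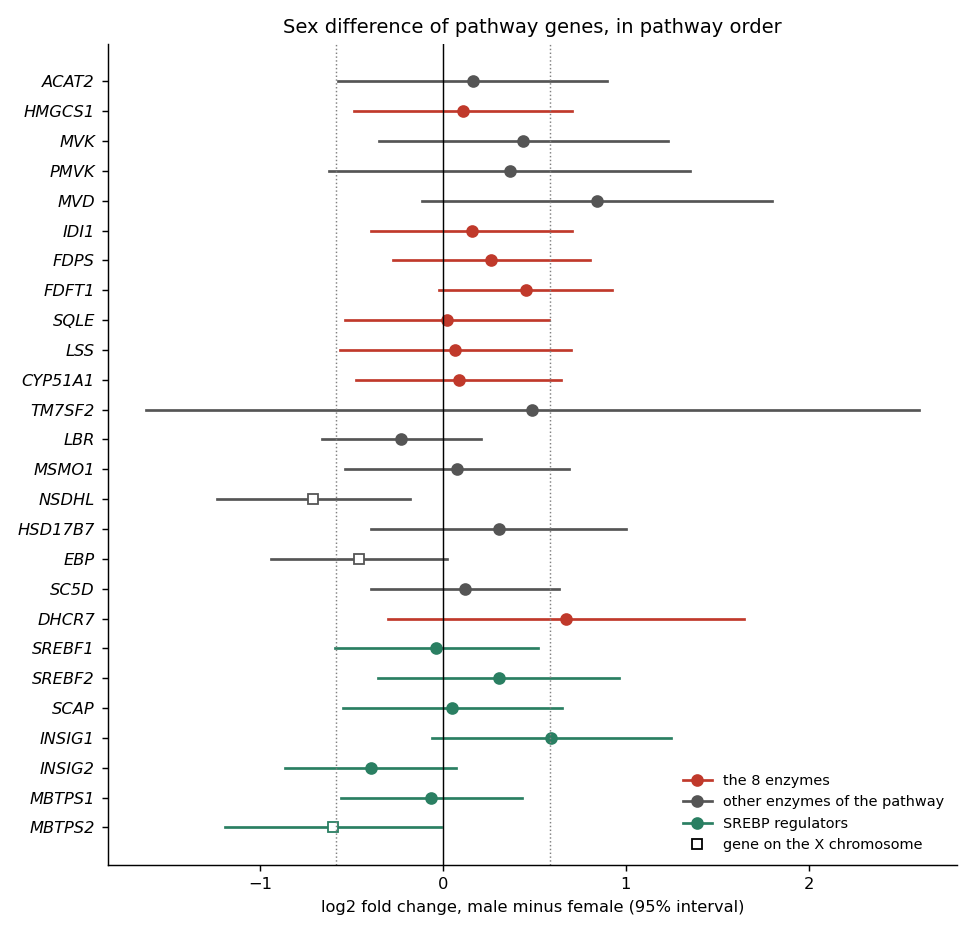
Log2 fold change, male minus female (horizontal axis), with its 95% interval for the 8 enzymes, 11 other enzymes in pathway order and 7 SREBP regulators, where open squares are X-linked genes and dotted lines mark a 1.5-fold change. The intervals of all 8 enzymes cross 0, and the open squares of NSDHL, EBP and MBTPS2 lie at -0.71, -0.46 and -0.60.

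Of the 7 regulators of the pathway, 0 were called by edgeR or DESeq2 with the library number and 1 had an unadjusted p under 0.05, against 13.2% of tested genes and 62.8% of those on the X chromosome. That gene was MBTPS2, the X-linked second protease of SREBP activation, at 19.4 ± 3.88 CPM in females (SD, n = 6) and 13.3 ± 6.65 CPM in males (SD, n = 5), with a log2 fold change of -0.60 (adjusted p = 0.366 from edgeR). SREBF2, the SREBP gene that mainly serves cholesterol synthesis, had a log2 fold change of 0.31 (adjusted p = 0.720 from edgeR), and leaving out male replicate 3 or 5 brought it to 0.027 or 0.074. Male replicate 3 is the only male of its library number, so without it the females of that number did not bear on the estimate. The other regulators were SREBF1 at -0.036, the escort SCAP at 0.052, the retention factors INSIG1 at 0.59 and INSIG2 at -0.40, and the first protease MBTPS1 at -0.063. Of 13 genes of sterol uptake, storage and efflux, 12 were tested and 0 were called by either tool, with 1 at an unadjusted p under 0.05. The 3 with the smallest p were the lipoprotein component APOE with a log2 fold change of 1.39, the efflux pump ABCA1 with -0.64 and MYLIP, a ubiquitin ligase, with -0.67. APOE was at 0.74 without male replicate 2 and ABCA1 at -0.30 without female replicate 5. The study itself reported APOE as sex-biased, for the gene as well as at the isoform level. ABCG1 had at most 10 counts in a library and did not pass the filter (two-sided exact permutation test on CPM, p = 0.242). Of 11 genes of the isoprenoid branches, edgeR called 0 with 2 at an unadjusted p under 0.05, and DESeq2 with the library number called 1, RABGGTA. Over all genes the shares were 13.2% at that p in edgeR and 4.17% called by DESeq2.

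The product of RABGGTA is a subunit of the enzyme that attaches geranylgeranyl groups to Rab proteins, and its level was 9.76 CPM, 12.5 CPM and 13.7 CPM in the lowest, median and highest female library, and 19.6, 22.6, 13.3, 18.2 and 37.3 CPM in males. Male replicate 3 alone overlapped the females. Its log2 fold change was 0.78 (95% interval 0.25 to 1.31, adjusted p = 0.183 from edgeR and 0.0686 from DESeq2 with the library number). PDSS1, which makes the ubiquinone side chain, and FNTA, a farnesyltransferase subunit, followed with 0.42 and 0.30.

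The 8 enzymes varied together from library to library. Pearson's r of log2 CPM over the 11 libraries was positive for all 28 pairs, with a median of 0.79 and a range from 0.47 (FDFT1 and SQLE) to 0.93 (IDI1 and FDPS). Over all 81939201 pairs of tested genes the median was -0.0013, and 1.31% of them had an r above the enzymes' median. These values are descriptions, since the 11 points share depth, composition and the embryos they come from. Spearman's rho had a median of 0.71 and ran from 0.33 to 0.95. With the 2 libraries farthest from the median of the first gene of each pair left out, r stayed positive for all 28 pairs, with a median of 0.68 and a low of 0.28 (LSS and DHCR7). In the 6 females alone the median was 0.87, against -0.0015 over all pairs of genes, and on residuals after sex and library number, over all 11, it was 0.85.

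**Figure D3:**
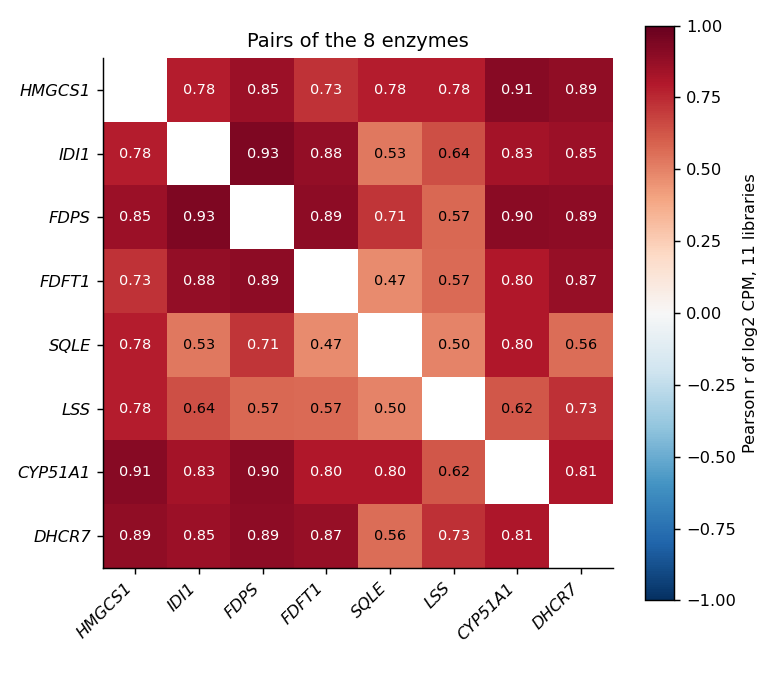
Pearson's r of log2 CPM over the 11 libraries for each pair of the 8 enzymes (colour scale from -1 to 1, value printed in each cell). All 28 cells are above 0, and the palest belong to SQLE and LSS, such as 0.47 for FDFT1 and SQLE.

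Each enzyme was also set against the mean z-score of the other 7. Pearson's r was 0.94 for FDPS, 0.93 for HMGCS1, 0.92 for CYP51A1, 0.91 for DHCR7, 0.88 for IDI1, 0.84 for FDFT1, 0.70 for LSS and 0.68 for SQLE. Spearman's rho was highest for FDPS and DHCR7 at 0.95 and lowest for LSS at 0.66. SQLE and LSS thus followed the others least closely. In male replicate 2, for instance, LSS was at 13.5 CPM, its lowest male value, while DHCR7 was at 132 CPM. SQLE, in turn, peaked in female replicate 2 at 256 CPM and was at 137 CPM in male replicate 5, where DHCR7 and FDFT1 peaked.

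Male replicate 5 stood apart over all genes, with an r of log2 CPM between 0.861 and 0.887 with the other males, against 0.929 to 0.963 for all other pairs of libraries of one sex. Female replicate 3 was the lowest of the 11 libraries for 6 of the 8 enzymes and for 6 of the 11 other enzymes of the pathway. Male replicate 5 was the highest for 4 of the 8 (FDPS, FDFT1, LSS and DHCR7) and for 5 of the 11 others, while it was the lowest for LBR and SC5D. Female replicate 1 was the highest for HMGCS1 and CYP51A1. The share of all tested genes that were highest or lowest in each library was not worked out. These counts are therefore not read as particular to the pathway. In male replicate 5, MVK was at 125 CPM and MVD at 113 CPM, against at most 47.0 CPM and 28.4 CPM in any other library, and DHCR7 made up 8.87% of the summed level of the 8, against 2.23% to 4.57% elsewhere. In the same library SQLE and CYP51A1 lay within the range of the others.

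**Figure D4:**
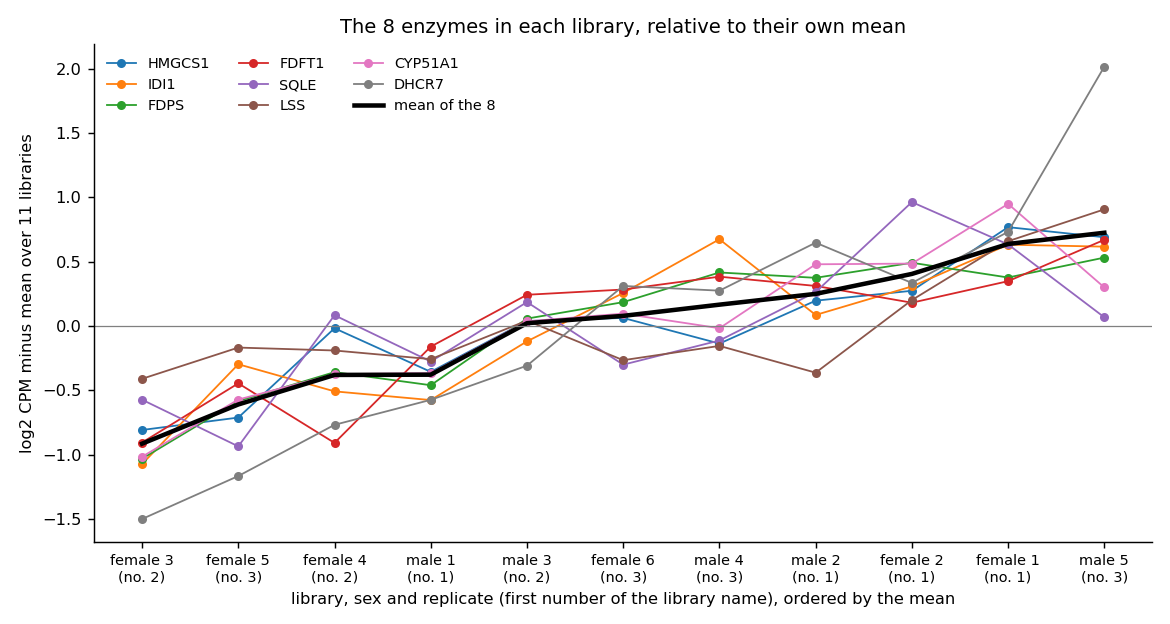
Log2 CPM of each enzyme minus its own mean over the 11 libraries (vertical axis), with libraries ordered by the mean of the 8 (black line) and labelled by sex, replicate and the first number of the library name. Female replicate 3 lies lowest and male replicate 5 highest, and DHCR7 has the widest swing of the 8 lines.

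The library names carry a number from 1 to 3 whose meaning the labels do not give. Summed over the 8 enzymes, the level was 2889 ± 773 CPM (SD, n = 4) in libraries numbered 1, 1864 ± 617 CPM (SD, n = 3) in those numbered 2 and 2817 ± 896 CPM (SD, n = 4) in those numbered 3. In edgeR's quasi-likelihood test of the number, 0 of the 8 had an FDR under 0.1 and 0 had an unadjusted p under 0.05, and 0.00781% of tested genes were called. IDI1 had the smallest p of the 8 (unadjusted p = 0.0564, adjusted p = 0.693 from edgeR). The unadjusted p from the same test was 0.0595 for CYP51A1, 0.0690 for SQLE, 0.0718 for FDFT1 and 0.0834 for DHCR7. It was 0.159 for FDPS, 0.384 for HMGCS1 and 0.632 for LSS. The share of all tested genes with an unadjusted p under 0.05 for the number was not worked out. With every gene of at least 1 count in the fit, IDI1, CYP51A1 and DHCR7 were called between numbers, as were 2.76% of the genes in that fit.

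Within the numbers the sexes did not keep one order. The summed level in number 1 was 3406 CPM in the 2 females and 2372 CPM in the 2 males, while in number 2 it was 1551 CPM in the 2 females and 2491 CPM in the 1 male, and in number 3 it was 2203 CPM in the 2 females and 3432 CPM in the 2 males. All 8 enzymes were estimated higher in females in number 1 and higher in males in numbers 2 and 3, a pattern of signs that 8.94% of tested genes had. As the 8 vary together, they do not count as 8 separate observations of it. For IDI1 the log2 fold changes were -0.69, 0.64 and 0.64 in numbers 1, 2 and 3, and for SQLE -0.79, 0.40 and 0.56. The interaction of sex and number, a fit added after these values were seen, called 0 of 12802 genes in edgeR (0% of those tested), with 230 genes and 3 of the 8 enzymes (IDI1, FDFT1 and SQLE) at an unadjusted p under 0.05 and an adjusted p of 1 for all 8.

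Genes outside the 8 were ranked by Pearson's r with the mean z-score of the 8 over the 11 libraries. Of 12794 such genes, the closest was ACAT2 (r = 0.93, rho = 0.87), the enzyme that feeds HMGCS1. Next came TMEM97 (0.93, rho = 0.90), a sterol-responsive membrane protein, PLA2G12A, a secreted phospholipase, and PPP1R14D, a phosphatase inhibitor. INSIG1 was the fifth (0.91, rho = 0.95), followed by LOC112447150, FADS1, a fatty acid desaturase at 0.90, SH3KBP1, LOC101906779 and EDEM2, with r from 0.89 to 0.92 for those without a value here. Without the 2 libraries farthest from the median of the score, female replicates 3 and 5, r was 0.86 for ACAT2, 0.84 for TMEM97 and 0.86 for INSIG1. INSIG1 was at 21.1 CPM, 38.7 CPM and 73.0 CPM in the lowest, median and highest female library and at 36.2, 90.8, 39.0, 57.7 and 116 CPM in males, with its lowest value in female replicate 3 and its highest in male replicate 5, as for DHCR7.

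Among the other 11 enzymes, 9 had an r over 0.5 with the score, and their median was 0.66, whereas 13.5% of all other tested genes had an r over 0.5 and their median was -0.034. PMVK (0.85) and HSD17B7 (0.84) followed ACAT2. Without female replicates 3 and 5, r was 0.40 for MSMO1, against 0.65 with them, so its likeness rested in part on those libraries. LBR, which also builds the nuclear envelope, had an r of -0.074, and SC5D had 0.15. The X-linked NSDHL and EBP had 0.63 and 0.70. In the 6 females alone r was 0.92 for NSDHL and 0.98 for EBP, and for the autosomal MSMO1 and SC5D it was 0.99 and 0.83.

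The regulators did not share one pattern. SREBF2 followed the enzymes (r = 0.82, rho = 0.65), and SREBF1 did so less (0.23, rho = 0.37). SCAP (-0.22), INSIG2 (-0.22) and MBTPS2 (-0.13) did not follow them. MBTPS1 ran the other way, with an r of -0.86, a rho of -0.92 and -0.82 without the 2 farthest libraries. Its level was 12.9 CPM in female replicate 1 and 11.5 CPM in male replicate 5, where the enzymes were highest, and 23.3 CPM in female replicate 3, where they were lowest. Of the 12 tested genes of sterol traffic, 2 had an r over 0.5 (16.7%, against 13.5% of all other tested genes) and the median was 0.14. The extremes, named after their values were seen, were the lysosomal sterol carrier NPC2 at 0.85 and LIPA, the lysosomal lipase that frees cholesterol from its esters, at -0.75. Among the isoprenoid branches 5 of 11 had an r over 0.5, up to 0.70 for PDSS2. Without the 2 farthest libraries r fell to 0.25 for PDSS1, 0.38 for COQ2 and 0.20 for NUS1. It was then 0.504 for PDSS2 and 0.51 for FNTA, while FNTB rose from 0.43 to 0.54.

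**Figure D5:**
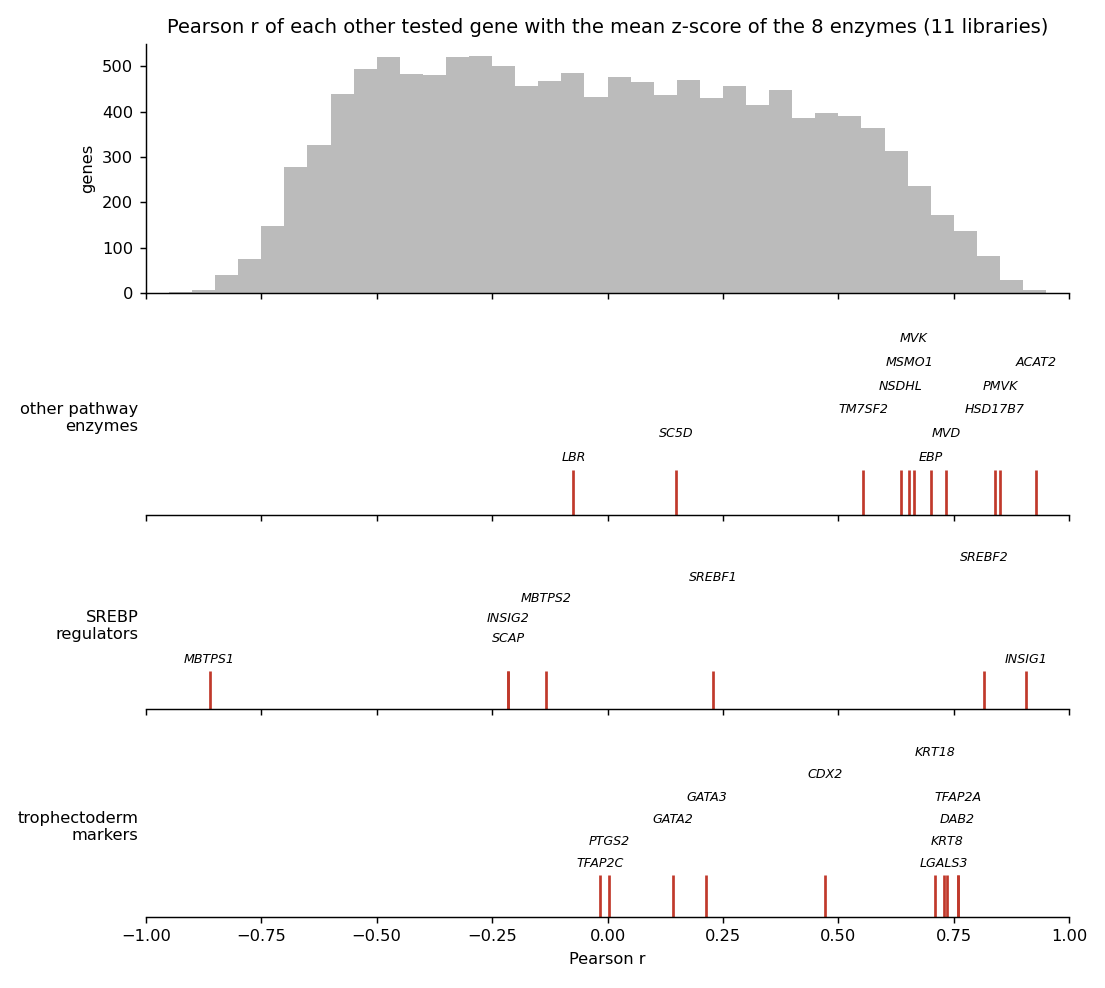
Histogram of Pearson's r between each of the 12794 other tested genes and the mean z-score of the 8 enzymes over 11 libraries (top, vertical axis in genes), with the other enzymes, the SREBP regulators and the trophectoderm markers marked as ticks on the same axis below. Of the other enzymes, 9 of 11 lie above 0.5, and among the regulators INSIG1 stands at 0.91 and MBTPS1 at -0.86.

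Other properties of the libraries moved with the enzymes. The marker sums, counts and factors of the libraries were put on a log2 scale for r and rho. The summed trophectoderm markers had an r of 0.72 and a rho of 0.73 with the score, and an r of 0.66 without the 2 farthest libraries. They summed to 7879 CPM in female replicate 3, the lowest library for both, and to 36145 CPM in male replicate 5, the highest for both. In each sex they ranged from 7879 CPM to 23154 CPM in females and from 9195 CPM to 36145 CPM in males. Of the 10 trophectoderm markers, 5 had an r over 0.5, namely TFAP2A, DAB2, KRT8, LGALS3 and KRT18 from 0.71 to 0.76, and CDX2, GATA2, GATA3, PTGS2 and TFAP2C had from -0.017 to 0.47. The sum was mostly LGALS3, KRT8, PTGS2 and KRT18, with female means of 5243, 4752, 2511 and 1465 CPM in a mean sum of 15003 CPM. CDX2, GATA2, GATA3 and TFAP2C had female means of 4.63, 49.8, 147 and 124 CPM and so weighed little in it. The summed inner cell mass markers had -0.34 and ranged from 559.6 CPM to 980.5 CPM in females and from 792 CPM to 1076 CPM in males, the summed hypoblast markers had -0.55 with 228 CPM to 621 CPM in females and 208 CPM to 467 CPM in males, and the summed cumulus markers had 0.57 with 7.19 CPM to 32.7 CPM in females and 5.38 CPM to 29.5 CPM in males. FSHR, the main part of the cumulus sum, had 0.59. The inner cell mass markers were split, with NANOG at 0.60, LIN28A at 0.55, POU5F1 at 0.079, KLF17 at -0.26, SOX2 at -0.41 and SPIC at -0.64. Without the 2 farthest libraries NANOG had -0.015 and LIN28A 0.74. Of the tested hypoblast markers, HNF4A had 0.30 and the others had from -0.65 to -0.10. The number of genes with a count, between 14937 and 18550 per library, had an r of -0.65, and the total count had 0.40. The TMM factor, which enters every CPM and lay between 0.878 and 1.09, had -0.63, and -0.42 without the 2 farthest libraries. Their part in the shared variation of the enzymes was not tested.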

How the data were processed

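Full-length cDNA of each pool was amplified (SMART-Seq HT PLUS), a chemistry that does not mark strand, and sequenced. Per the study's methods and the labels, the authors used fastp 0.20.0 for trimming and STAR 2.7.10b for alignment to ARS-UCD 2.0 with up to 3 mismatches, and deposited whole-number counts per gene from featureCounts 2.0.3, without normalization. Settings for multimapped reads are not given in the sources used here. Symbols were matched to RefSeq (ARS-UCD2.0) for 30271 of 32637 genes; no transcript lengths or sequences were at hand, so a planned promoter search was not run.

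The statistics were run in edgeR 4.0.16 (R 4.3.3): filterByExpr by sex (12802 genes), TMM factors, and the quasi-likelihood test of male against female with the library number as a block, adjusted by Benjamini-Hochberg over all tested genes with calls at an FDR under 0.1 and over 1.5-fold. The standard error was the log2 fold change over the root of F. Log2 CPM used a prior count of 2. Exact permutation tests were two-sided. DESeq2 1.42.0, other factors and filters, and fits without each library were alternatives. In the fit without male replicate 3, the only male with the library number 2, the 2 females of that number did not bear on the sex estimates. Python 3.11.15, numpy 2.4.6, pandas 2.3.3 and scipy 1.17.1 were used for the rest. The tests were checked on simulated counts. The labels do not say that pools came from separate parents or weeks, so p-values measure the spread between pools. Within a sex no library was a copy of another (chi-square per degree of freedom at least 16.1). The enzymes, gene lists and thresholds were chosen with earlier results of these data known. Some genes of the lists are not reported here. Named singly are the 8 enzymes, the other listed enzymes and regulators, the 3 genes with the smallest p in each other list that had no call, and the 10 genes most like the 8. Further genes of the marker and sterol traffic lists were named after their values were seen.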

Additional observations from a re-analysis of the deposited data

Results flagged for a closer look

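In each sex, the highest and the lowest library of every pathway gene given singly for its sex difference, and of the summed level of the 8 enzymes, were compared with the other libraries by Dixon's ratio, and 7 of 66 groups had a library standing apart. Chance gives about 1 in 20 for separate groups of normally spread values. Here CPM was used without a log, and many of the genes vary together in the same 11 libraries. The 7 groups therefore do not count as separate observations. Male replicate 5 was the library in 4 of them, at 32.9 CPM for LSS (next male 18.0 CPM), 342 CPM for DHCR7 (next 132 CPM), 125 CPM for MVK (next 31.5 CPM) and 113 CPM for MVD (next 24.2 CPM). It also had the most counts (21392764) and the fewest genes with a count (14937) of the 11 libraries. HSD17B7 was lowest in male replicate 1 at 29.8 CPM, with the next male at 62.7 CPM. INSIG2 was highest in female replicate 6 at 58.1 CPM, with the next female at 40.3 CPM, and MYLIP was highest in male replicate 2 at 6.97 CPM, with the next male at 3.50 CPM.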

How the results depend on the processing

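Of 144 refits of the 8 log2 fold changes, 125 kept the male side. SQLE turned to the female side in edgeR without the library number (-0.092) and in DESeq2 without it (-0.087). It also did so with autosomal TMM factors (-0.0043) and with at least 1 CPM in all libraries (-0.0036). The other 15 reversals came from fits without 1 library, namely female replicate 3, 5 or 6 or male replicate 3, 4 or 5. Over these fits HMGCS1 ran from -0.090 to 0.29, IDI1 from -0.022 to 0.37, SQLE from -0.14 to 0.22, LSS from -0.20 to 0.24 and CYP51A1 from -0.13 to 0.29, with FDPS (0.10 to 0.47), FDFT1 (0.20 to 0.61) and DHCR7 (0.22 to 0.99) on the male side throughout. Other genes that crossed 0 were ACAT2 (-0.058 to 0.40), MVK (-0.036 to 0.58), TM7SF2 (-0.42 to 1.06), MSMO1 (-0.24 to 0.29), SC5D (-0.17 to 0.28), SREBF1 (-0.22 to 0.097), SCAP (-0.13 to 0.18) and MBTPS1 (-0.20 to 0.075). Genes that kept their side but moved by over 1.5 times included PMVK (0.036 to 0.66), MVD (0.23 to 1.06), HSD17B7 (0.045 to 0.53), SREBF2 (0.027 to 0.52), APOE (0.74 to 1.802) and ABCA1 (-0.83 to -0.30).

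With every gene of at least 1 count in the fit, 1 of the 8 was called, DHCR7 (log2 fold change 0.68, adjusted p = 0.0516 from edgeR, against 0.340 to 0.833 over the fits without 1 library), as were 2 other enzymes (MVD and NSDHL) and 1 gene of sterol traffic (APOE), and 3 of the 8 differed between library numbers, as did 658 of 23857 genes in that fit. The cause was not tested. DESeq2 called 1 isoprenoid gene, RABGGTA, with and without the library number. The number of all genes called was 743 with every gene of at least 1 count, 655 and 739 in DESeq2 with and without the library number, 62 with the fold change itself tested, 125 at an FDR of 0.05, and from 95 to 364 without 1 library (male replicate 3 and male replicate 5). The fit behind the 95 had no male with the library number 2, so the females of that number did not bear on its sex estimates. Without the library number as a block in edgeR the number of genes called was 326, with 0 of the 8. Between libraries of opposite sex with the same number, deviations from the sex means had an r from -0.11 to 0.35 over 10 pairs, with a median of 0.00049. Over the 20 pairs with different numbers r ran from -0.30 to 0.24, with a median of -0.051. The best match had the same number for 3 of 6 females and 3 of 5 males. How many such matches arise with no pairing was not worked out, so these values do not decide whether the number pairs libraries. The median r of the 28 pairs was between 0.73 and 0.82 without 1 library. The spread between pools limits the precision: the upper 95% bounds of the male over female folds of the 8 were 1.496 (SQLE) to 3.13 (DHCR7).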
